A study of Mus musculus with 10 samples.

Results

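The elastic fibre and microfibril genes of the mouse posterior eye wall were taken as 10 genes, Eln, Fbn1, Fbn2, Fbln1, Fbln2, Fbln5, Efemp1, Efemp2, Mfap4 and Mfap5, found by gene name among the 26360 genes listed in the deposited values. All 10 were present and all 10 passed the filter of a mean of at least 1 CPM (the usual read count scaled to a fixed library total). Their levels were followed over 10 RNA sequencing libraries from 5 wild-type C57BL/6J mice, with 1 right-eye and 1 left-eye library per animal (n = 5 right, n = 5 left). Each animal wore a -20 D lens over 1 eye for 10 days from postnatal day 24, and the tissue was taken at postnatal day 34 and holds, by its label, the sclera, the choroid and the retinal pigment epithelium (RPE). A lens of negative power places the image behind the retina and makes the young eye grow longer and myopic. The labels name each eye as right or left without saying where the lens was, so right eyes were set against left eyes. What the sign of a difference means for the treatment is therefore not known, and it is not read as a lens effect. All groups share genotype, strain, age and exposure of 1 eye to the lens, and no animal without a lens was included.

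Elastic fibres are built from a core of crosslinked elastin and a sheath of microfibrils. The microfibrils are beaded polymers of fibrillin, which also hold latent TGF-beta complexes. Fibulins and microfibril-associated glycoproteins bring tropoelastin, the soluble elastin monomer, to the microfibrils and to the lysyl oxidases that crosslink it. In the eye, elastin forms the middle layer of Bruch's membrane under the RPE, elastic fibres run between the collagen lamellae of the sclera, and fibrillin microfibrils make up the zonule that holds the lens. In humans, variants of FBN1 cause Marfan syndrome, in which high myopia is common.

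Markers of the labelled tissue were present in every library. All 8 sclera and fibroblast markers, 7 of 8 RPE markers and all 6 pigment markers averaged at least 1 CPM, with Best1 below it. Transcripts of other tissue were present as well. The summed level of 8 skeletal muscle markers was 3386 to 7085 CPM in right and 1871 to 8669 CPM in left eyes, and that of 8 rod markers was 126 to 1857 CPM in right and 208 to 881 CPM in left eyes. Implied library totals were 66.8 to 94.0 M reads, of which the listed genes held 42.7% to 47.1%. The lowest member value in any library corresponded to 1127 implied reads and the highest to 30551. Counting error was thus small beside the spread of each member over the 10 libraries (coefficients of variation of 8.64% to 26.0%). This does not hold for every spread within a side, which was narrow for Mfap5 in right eyes (SD 0.562 CPM).

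The study from which these libraries come concerns microRNA control of messenger RNA, and miR-29 is the family best known for repressing elastin, fibrillin-1 and collagen transcripts. The 3 mature sequences are therefore shown, with the seed (bases 2 to 8, the bases that pair with a target) in capitals. No microRNA level was analysed here.
miR-29a-3p: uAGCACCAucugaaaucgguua
miR-29b-3p: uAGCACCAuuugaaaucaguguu
miR-29c-3p: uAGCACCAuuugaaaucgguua

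All 3 share the seed AGCACCA, whose match on a transcript reads TGGTGCT. In the longest annotated 3′ UTR of each member, on the transcript strand only, Eln held 3 such matches, Fbn1 held 2, Mfap5 held 2 and Fbn2 held 1. The other 6 members, the 5 fibulins and Mfap4, held 0. A match was present in 13.2% of 20952 3′ UTRs of all genes. Among 3′ UTRs within 20% of the same length the share was 11.6% for Eln, 9.60% for Fbn1, 8.58% for Mfap5 and 14.0% for Fbn2. For the 6 members without a match it ran from 4.7% for Efemp1 to 34.9% for Fbln5. These shares count 3′ UTRs with at least 1 match, and the share with a repeated match was not computed. A seed match is a run of letters and not evidence of binding. The matches of Eln (minus strand, GRCm38), Fbn1 (minus strand) and Mfap5 (plus strand) are printed with their flanks because these are the members in which a repeated match was found. Capitals mark the seed match, and the windows of the last 2 Eln matches overlap.
Eln, chr5:134703726-134703754: ctcatcaacgtTGGTGCTactgcttggtg
Eln, chr5:134703479-134703507: ccaagggaaatTGGTGCTacatgttggtg
Eln, chr5:134703466-134703494: gtgctacatgtTGGTGCTtcttctttgtg
Fbn1, chr2:125301163-125301191: tgttgtctgttTGGTGCTagtaaattctc
Fbn1, chr2:125300913-125300941: agggtttgtaaTGGTGCTtattaagacca
Mfap5, chr6:122528564-122528592: ctaattttcacTGGTGCTggtaacgtttg
Mfap5, chr6:122528787-122528815: ttttttttaaaTGGTGCTatgaattgatc

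Fbln1 and Fbn1 were the members with the highest levels per length of transcript. Levels were compared between genes as CPM per kb of merged exons, averaged over the 10 libraries with the SD over libraries. Fbln1, which encodes a fibulin of basement membranes and elastic fibres, stood at 26.9 ± 4.04 CPM per kb (SD, n = 10), and Fbn1, the main fibrillin of mature microfibrils, at 25.9 ± 2.24 CPM per kb. These 2 genes overlapped, with Fbln1 above Fbn1 in 7 of 10 libraries. Mfap4, a glycoprotein that binds microfibrils and tropoelastin, followed at 20.5 ± 1.77 CPM per kb and Efemp1, or fibulin-3, at 19.7 ± 5.12 CPM per kb. These also overlapped, with Mfap4 higher in 6 of 10 libraries, whereas Fbn1 was above Mfap4 in every library and Efemp1 above the next gene, Fbln5, in every library.

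The remaining 6 members formed a lower group. Fbln5, the fibulin that tethers tropoelastin to microfibrils and cells, was at 9.80 ± 0.863 CPM per kb and above Fbln2 in 10 of 10 libraries, although their ranges overlapped. Fbln2, a larger fibulin, stood at 6.67 ± 0.702 and Efemp2, or fibulin-4, at 5.99 ± 0.608 CPM per kb. Fbn2, the fibrillin of developing microfibrils, was at 5.35 ± 0.723, Eln at 5.25 ± 0.703 and Mfap5, the microfibril-associated glycoprotein MAGP-2, at 5.19 ± 0.587 CPM per kb. Per kb of merged exons the last 3 did not differ beyond their spread. Fbn2 was above Eln in 5 of 10 libraries and Eln above Mfap5 in 5 of 10. Their place in the order depends on the length used. With the longest protein-coding transcript in place of merged exons, an alternative added after the data were seen, Eln had 11.0 and Mfap5 12.4 CPM per kb. Fbn2 was then below both, at 6.41 CPM per kb. The first 4 places were the same with either length.

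**Figure D1:**
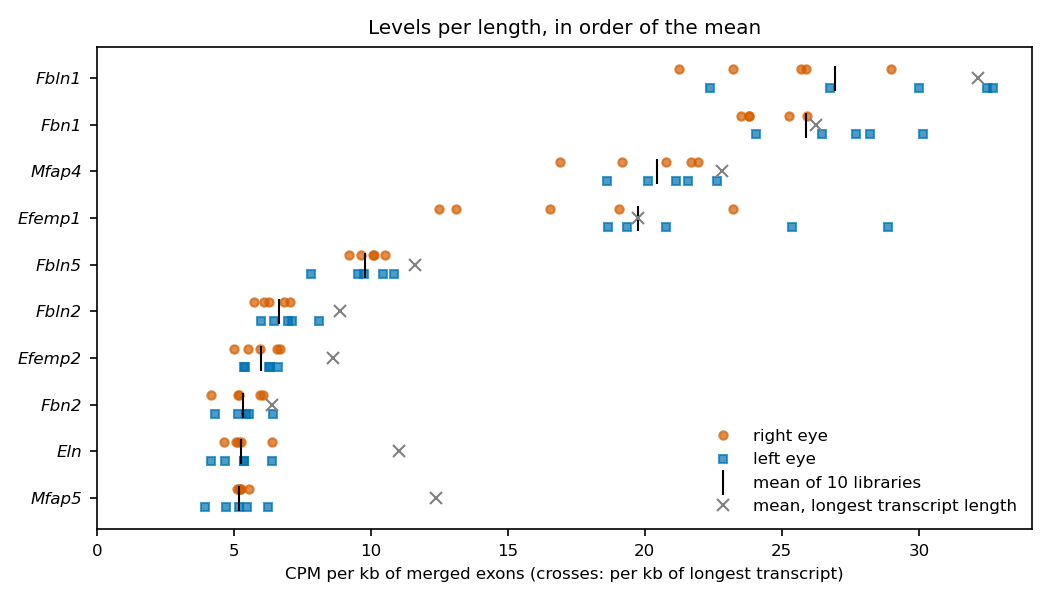
Level per length of the 10 members. Each point is 1 library (circles right eyes, squares left eyes) in CPM per kb of merged exons, the bar is the mean of the 10 libraries and the cross is the mean per kb of the longest transcript. Fbln1, Fbn1, Mfap4 and Efemp1 lie apart from the other 6 genes, and the crosses of Eln and Mfap5 lie far to the right of their bars.

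The first comparison asked whether a member's level in the right eye differed from that in the left eye of the same mouse. With animal blocks, limma called none of the members at an adjusted p under 0.05 (0 of 10, against 0% of 15414 genes tested, adjusted p = 0.9998 for each member). At an unadjusted p under 0.05 limma counted 1 member, Efemp1, where 2.79% of all genes (430) were counted. Efemp1 was lower in the right eye, as were 1.99% of all genes at that p. The log2 difference was negative for 7 of the 10 members and positive for 3, against 54% of all genes lower, and their median log2 difference was -0.04, against -0.01 for all genes tested. No member had the same direction in 5 of 5 animals (0 of 10, against 4.44% of all genes), and 5 of 10 had the same direction in at least 4 (35.8% of all genes). The test was precise for most members. The 95% interval stayed inside 1.5-fold, up or down, for 9 of 10 members, the exception being Efemp1, and for 88.6% of all genes. In whole tissue a lower level can reflect fewer cells of a type or less RNA per cell, and these cannot be told apart.

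The mean level of Eln was nearly equal in right and left eyes. Values are given in CPM in the order of animals 61, 64, 65, 66 and 68. Eln (chromosome 5, 134702593 to 134747323, minus strand, GRCm38), the tropoelastin gene, had 41.2, 41.7, 42.6, 51.7 and 37.7 CPM in right eyes, against 43.5, 38.0, 33.8, 51.7 and 43.5 CPM in left eyes. Both eyes of animal 66 held the highest levels of their side, and the groups overlapped throughout. The log2 difference was 0.04 ± 0.08 (SE), with a 95% interval from -0.15 to 0.22 and an adjusted p of 0.9998 in limma. It turned to -0.04 without animal 65, whose right eye was 1.26-fold above its left eye.

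The fibrillins differed from each other in how much fellow eyes varied. Fbn1 (chromosome 2, 125300594 to 125507993, minus strand) had 285, 315, 289, 306 and 289 CPM in right eyes, against 342, 292, 366, 336 and 321 CPM in left eyes. The right eye was the lower in 4 of 5 animals, with animal 64 the exception, and the groups overlapped. The log2 difference was -0.16 ± 0.07 (SE), with a 95% interval from -0.32 to 0.01 and an adjusted p of 0.9998 in limma. Fbn2 (chromosome 18, 58008623 to 58210487, minus strand) had 55.1, 68.4, 68.8, 78.7 and 80.4 CPM in right eyes, against 57.0, 68.4, 72.1, 73.4 and 85.1 CPM in left eyes. Fellow eyes were close to each other in every animal, and the log2 difference of -0.02 ± 0.05 (SE) had a 95% interval from -0.13 to 0.09. It was -0.050 without animal 66 and -0.0042 without animal 68. The level of Fbn1 per kb was 4.68 ± 0.676 times that of Fbn2 in right eyes and 5.16 ± 0.924 times in left eyes (SD, n = 5 each). This ratio was lower in the right eye of 4 of 5 animals and ranged from 3.91 in the right eye of animal 68 to 6.53 in the left eye of animal 61.

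Among the fibulins, Efemp1 had the widest spread and the largest difference of any member. Efemp1 (chromosome 11, 28853204 to 28926743, plus strand) encodes fibulin-3, a secreted glycoprotein in which a human variant causes deposits under the RPE. It had 38.8, 47.3, 33.7, 25.5 and 26.7 CPM in right eyes, against 39.4, 42.3, 58.8, 51.7 and 38.0 CPM in left eyes. The right eyes of animals 65, 66 and 68 were lower than every left eye, the right eye of animal 61 was close to its fellow, and that of animal 64 was higher than its fellow, so the groups overlapped. The log2 difference was -0.44 ± 0.17 (SE), or 0.739-fold, with a 95% interval from -0.84 to -0.04 that is not adjusted for the number of genes. It did not pass over all genes (adjusted p = 0.9998 in limma, lower in 4 of 5 animals). An exact two-sided sign-flip test over animals gave p = 0.188, where 0.0625 is the smallest that 5 animals can give. Over the 10 libraries its coefficient of variation was 26.0%, at percentile 89.4 of the genes tested, against 8.64% to 15.0% for the other 9 members.

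Fbln1 moved in the same direction as Efemp1 in every animal. Fbln1 (chromosome 15, 85205949 to 85286535, plus strand) had 112, 127, 113, 101 and 92.8 CPM in right eyes, against 131, 117, 143, 142 and 97.7 CPM in left eyes. Again the right eye of animal 64 was the higher of its pair and the other 4 were the lower, with overlap between the groups. The log2 difference was -0.20 ± 0.09 (SE), with a 95% interval from -0.40 to 0.00 and an adjusted p of 0.9998 in limma. Without animal 66 it was -0.13, which moves it by over 1.5 times. Fbn1 also had these directions, so that Fbn1, Fbln1 and Efemp1 had the same sign in 5 of 5 animals. Among the 45 pairs of members, Fbln2 and Mfap5 also shared their signs in 5 of 5 animals. The share of all genes with such agreement was not computed.

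The other fibulins did not have the directions of Fbn1, Fbln1 and Efemp1 in every animal. Fbln2 (chromosome 6, 91212455 to 91272540, plus strand) had 43.5, 40.1, 38.8, 45.0 and 36.5 CPM in right eyes, against 51.8, 45.3, 38.2, 44.4 and 41.2 CPM in left eyes. Animals 65 and 66 had nearly equal eyes and the other 3 had the lower level in the right eye, with a log2 difference of -0.11 ± 0.06 (SE). Fbln5 (chromosome 12, 101746565 to 101819055, minus strand) had 72.8, 66.8, 69.7, 70.0 and 63.6 CPM in right eyes, against 75.0, 67.4, 53.9, 72.3 and 65.995 CPM in left eyes. The left eye of animal 65 was the lowest of all 10 libraries, and without that animal the log2 difference of 0.04 ± 0.07 (SE) turned to -0.04. Efemp2 (chromosome 19, 5473954 to 5482517, plus strand) encodes fibulin-4, which brings lysyl oxidase to tropoelastin. It had 22.6, 20.9, 25.4, 24.9 and 19.0 CPM in right eyes, against 20.4, 23.8, 20.6, 25.1 and 24.0 CPM in left eyes. Its log2 difference was -0.02 ± 0.09 (SE), and its direction turned without animal 64 (0.03) or animal 68 (0.06). Without animal 65 it was -0.10. Exons of Efemp2 overlap Mus81 on the other strand, and no source used here states whether counting used strand.

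Neither microfibril-associated glycoprotein differed between sides beyond the spread between animals. Mfap4 (chromosome 11, 61485431 to 61488900, plus strand) had 39.9, 36.8, 42.1, 41.7 and 32.5 CPM in right eyes, against 41.5, 35.8, 40.7, 43.5 and 38.6 CPM in left eyes. The right eye of animal 68 held the lowest value, and the log2 difference was -0.05 ± 0.06 (SE), with a 95% interval from -0.19 to 0.08. Without that animal the difference was -0.0057. Its exons overlap Mapk7 on the other strand. Mfap5 (chromosome 6, 122505845 to 122529290, plus strand) had 19.9, 18.7, 18.7, 18.9 and 18.4 CPM in right eyes, against 22.4, 19.7, 14.2, 16.9 and 18.6 CPM in left eyes. The right eyes lay within a range that the left eyes exceeded at both ends, with SDs of 0.562 CPM in right and 3.07 CPM in left eyes (n = 5 each). The log2 difference was 0.06 ± 0.09 (SE), with a 95% interval from -0.14 to 0.26, and turned to -0.02 without animal 65.

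**Figure D2:**
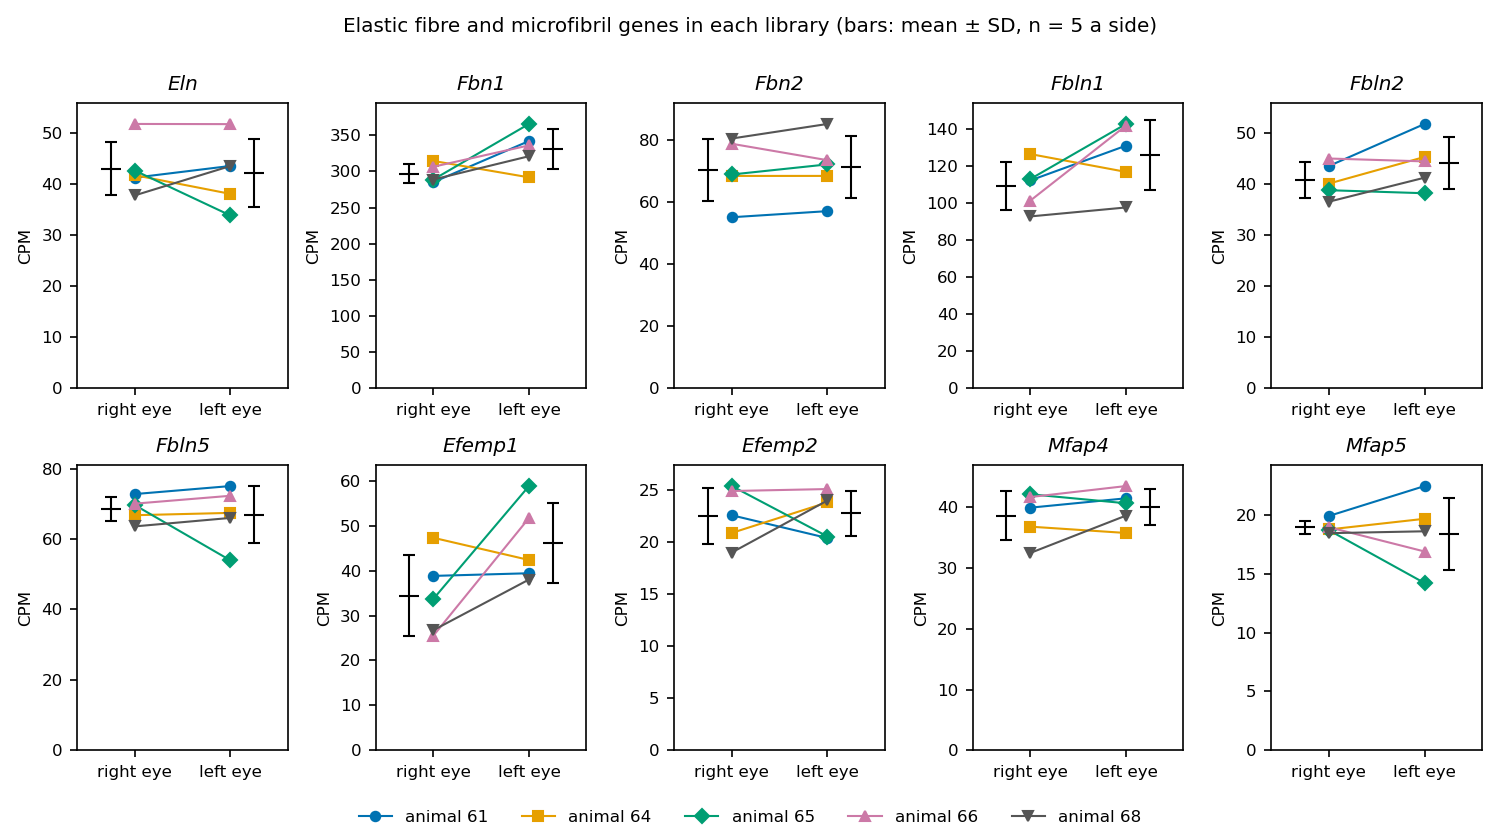
CPM of each member in every library, right eyes on the left of each panel and left eyes on the right, with a line joining the eyes of 1 animal and bars for the mean ± SD of each side (n = 5). Efemp1 runs from 25.5 to 58.8 CPM, and its lines for animals 65, 66 and 68 are the steepest of the panel.

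**Figure D3:**
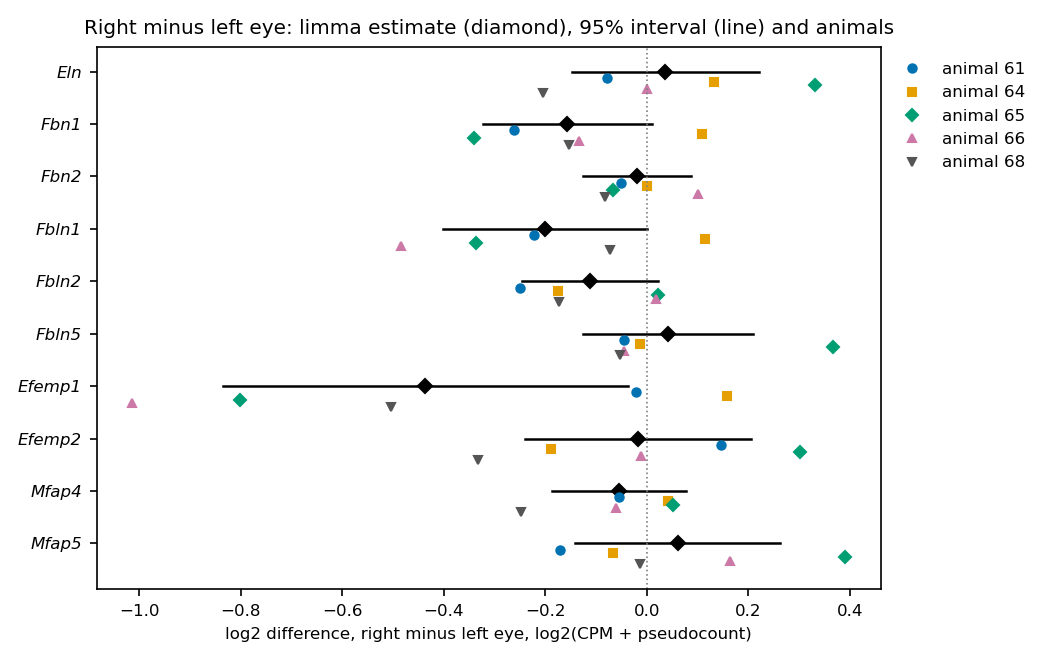
Right minus left eye on the log2(CPM + 0.230) scale for each member. Diamonds are limma estimates, lines are 95% intervals unadjusted for the number of genes, and small symbols are the 5 animals. The interval of Efemp1 is the widest and the only one that leaves out 0.

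The signs of the fellow-eye differences set animal 64 apart for 3 genes. Its right eye was the higher for Fbn1 (log2 0.11), Fbln1 (0.11) and Efemp1 (0.16), while in animals 61, 65, 66 and 68 each of these genes was the lower in the right eye. Animal 65 had the highest right minus left difference for another set. Its right eye was higher by 0.33 for Eln, 0.37 for Fbln5, 0.30 for Efemp2 and 0.39 for Mfap5 on the log2 scale. Of these, Fbln5 was higher in the right eye of animal 65 alone. The right eye was also the higher for Eln in animals 64 (0.13) and 66 (0.00095), for Efemp2 in animal 61 (0.15) and for Mfap5 in animal 66 (0.16). By narrow margins, animal 65 had the highest difference for Mfap4 (0.051, with 0.041 in animal 64) and Fbln2 (0.022, with 0.018 in animal 66) as well. In animal 65 the right eye was lower for Fbn1 (-0.34), Fbln1 (-0.34) and Efemp1 (-0.80), as in animals 61, 66 and 68. Without animal 65 all 10 members were lower in the right eye, with a median log2 difference of -0.09, where 62.2% of all genes were lower, with a median of -0.03. Without animal 68, 6 of the 10 members were lower, with a median of -0.0049, where 49.7% of all genes were lower. No member passed over all genes in either setting.

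**Figure D4:**
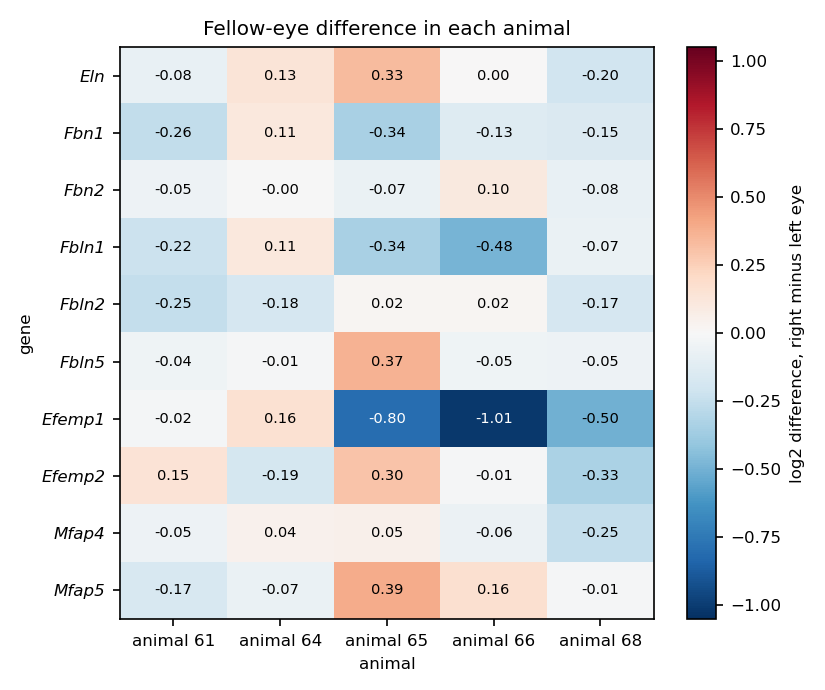
Log2 difference between the right and left eye of each animal (columns) for each member (rows), printed in each cell and coloured blue where the right eye was lower and red where it was higher. Efemp1 reaches -1.01 in animal 66, and animal 64 is red for Fbn1, Fbln1 and Efemp1 alone among the animals.

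The direction of summed cell type marker levels was set beside that of each member. Many pairs of a marker list and a member were compared, so full agreement can arise for some of them in any case. How often all genes share the direction of a marker sum was not computed. The counts below are descriptions, with no test. The sum of the 8 sclera and fibroblast markers (6663 to 9321 CPM in right and 6384 to 9286 CPM in left eyes) had the direction of Fbln2 and of Mfap5 in 5 of 5 animals, of Eln, Fbn2 and Fbln5 in 4 of 5, and of Efemp1 in 2 of 5. The sum of the 6 pigment markers (3315 to 4437 CPM in right and 3701 to 4311 CPM in left eyes) had the direction of Mfap4 in 5 of 5. In 4 of 5 animals the eye with less Efemp1 had the higher sum of the 8 RPE markers (5159 to 6851 CPM in right and 4970 to 5600 CPM in left eyes), and none of these markers was at 0. The same 4 of 5 held for 8 choroidal endothelium markers (372 to 541 CPM in right and 409 to 465 CPM in left eyes), 8 smooth muscle and pericyte markers (873 to 1070 CPM in right and 924 to 1026 CPM in left eyes), 8 lens markers (150 to 891 CPM in right and 128 to 389 CPM in left eyes) and 8 macrophage markers (176 to 199 CPM in right and 173 to 195 CPM in left eyes). It was the eye with more Efemp1 that had the higher sum of pigment, rod, cartilage and adipocyte markers in 4 of 5 animals. The RPE, endothelium, smooth muscle, lens and macrophage sums had the same sign as each other in every animal. The rod and cartilage sums had the opposite sign to these in every animal. Their counts therefore repeat a single pattern over 5 animals and are not separate agreements. The adipocyte markers Adipoq, Plin1 and Cidec were at 0 in some libraries. For the 8 skeletal muscle markers the direction matched that of Efemp1 in 2 of 5 animals, and for the 8 surface epithelium markers (114 to 660 CPM in right and 272 to 863 CPM in left eyes) in 3 of 5. The counts for Efemp1 were identical for Fbln1 and Fbn1, since the 3 genes share their signs. The part of tissue content in the differences was not tested.

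The second comparison asked whether the members differed between the 5 animals by more than fellow eyes did. None passed an adjusted p of 0.05 in limma's F test with eye side as a term (0 of 10, against 0.0843% of genes, 13 of 15414, and the smallest adjusted p of a member was 0.282). The count of 13 over all genes was 5 to 10 with any animal or eye left out, and lowest without animal 61. At an unadjusted p under 0.05 the test counted 2 members, Fbn2 and Fbln2, and 7.22% of all genes. Whatever the eyes of an animal share, such as dissection or library preparation, cannot be told apart from the animal.

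Fbn2 had the lowest p of the members between animals. Its mean of both eyes was 56.1 CPM in animal 61, 68.4 in animal 64, 70.5 in animal 65, 76.1 in animal 66 and 82.8 in animal 68, while fellow eyes differed by a mean of 0.06 on the log2 scale (unadjusted p = 0.00088 and adjusted p = 0.282 in limma). The unadjusted p was 0.058 without animal 61, and 0.00079 to 0.0039 with any other single animal left out. The adjusted p was 0.103 to 0.980 over all alternatives, and without animal 61 most members shared a single adjusted value. Fbn1 was at the other end, with animal means of 303 to 327 CPM, a mean fellow-eye difference of 0.20 on the log2 scale and an adjusted p of 0.942 in limma. Fbln2 ran from 38.5 CPM in animal 65 to 47.6 CPM in animal 61 (unadjusted p = 0.0473 and adjusted p = 0.684 in limma). Its unadjusted p in limma was 0.067 with another scaling (median of ratios) and 0.150 without animal 61. For Eln it was 0.056 in the main fit and 0.041 with that other scaling. Which members were counted beside Fbn2 thus depended on the setting.

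**Figure D5:**
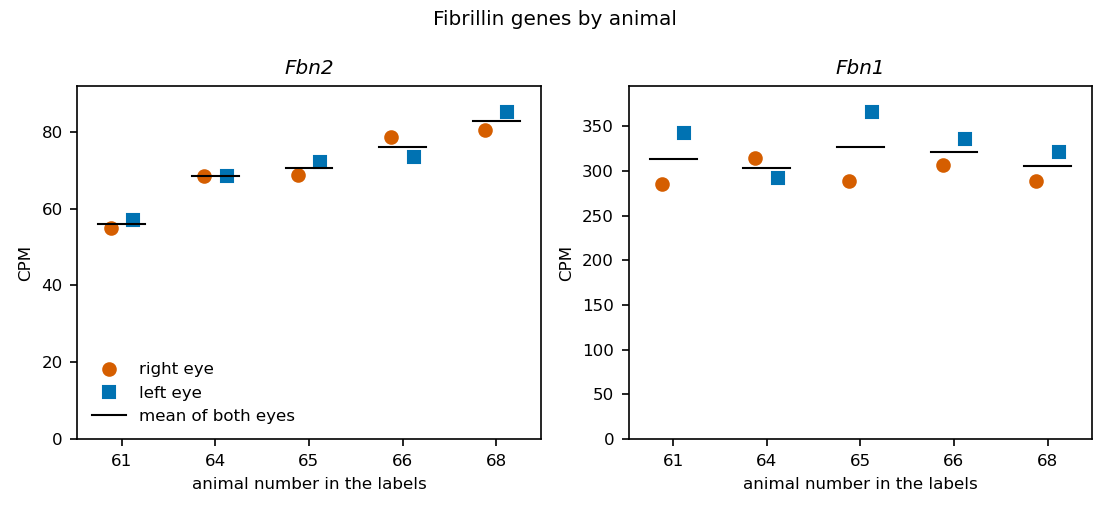
CPM of the fibrillin genes Fbn2 and Fbn1 in the right eye (circles) and left eye (squares) of each animal, with the mean of both eyes as a bar. The eyes of an animal lie close together for Fbn2, whose animal means run from 56.1 to 82.8 CPM, and far apart for Fbn1, whose animal means run from 303 to 327 CPM.

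Across the libraries the members did not vary as 1 block. Of the 45 pairs of members, Fbln1 and Efemp1 had the highest Pearson correlation of log2 values (r = 0.86 over 10 libraries, which are fellow eyes of 5 animals and share their depth scaling), followed by Fbln5 with Mfap5 (0.81) and Eln with Fbln5 (0.71). Fbn1 went with Fbln1 (0.68) and Efemp1 (0.64). The lowest was Fbn2 with Fbln2 (-0.51). These are descriptions, with no test. Since Efemp1 and Fbln1 varied together, the 250 bases before their starts are shown (plus strand, RefSeq, GRCm38.p6), where 6 of 10 members had an entry. Short motifs were searched on both strands, and matches are in capitals. The TATA box was searched as TATAAA and the GC box as GGGCGG. The site of AP-1, a factor that responds to growth signals, was searched as TGANTCA, a loose form in which N is any base. The SMAD site of TGF-beta signalling was searched as CAGACA. For Fbln1 the table holds 2 overlapping windows, of which the first is printed.
Efemp1, chr11:28852955-28853204: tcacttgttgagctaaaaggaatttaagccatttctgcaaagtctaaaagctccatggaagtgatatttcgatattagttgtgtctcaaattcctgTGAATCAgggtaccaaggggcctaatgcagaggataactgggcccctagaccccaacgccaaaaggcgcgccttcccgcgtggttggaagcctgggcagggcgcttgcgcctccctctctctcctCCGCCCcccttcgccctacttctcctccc
Fbln1, chr15:85205699-85205948: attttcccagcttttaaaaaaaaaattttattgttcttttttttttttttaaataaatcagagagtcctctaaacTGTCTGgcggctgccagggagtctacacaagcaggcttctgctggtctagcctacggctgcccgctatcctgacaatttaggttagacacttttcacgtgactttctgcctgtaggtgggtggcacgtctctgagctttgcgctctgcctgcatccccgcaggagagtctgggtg

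The Efemp1 window held 1 GC box match and 1 match to the loose AP-1 form, with A at N. The printed Fbln1 window held 1 SMAD match. The second Fbln1 window held 1 GC box and 1 SMAD match. Over 32851 windows of this length, 32.7% held a GC box match, 6.75% an AP-1 match, 17.1% a SMAD match and 12.4% a TATA box match. The G and C content was 53.6% for Efemp1, 46.4% for the printed Fbln1 window and 62.4% for the second Fbln1 window. The median over all windows was 52.4%. A match is a description of letters and says nothing of binding.

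Likeness to each member was measured by Pearson correlation of log2 values over the 10 libraries, and the top 2 genes are named. Eln was most like Hic1 (r = 0.94) and Cdk2ap1 (0.93), Fbn1 like Rbm12b1 (0.91) and Lrrc56 (0.89), and Fbn2 like Wdr12 (0.97) and Ccn4 (0.90). Among fibulins, Fbln1 was most like Efcab12 (0.96) and Nos1ap (0.96), Fbln2 like Rab21 (0.99) and Acvr1 (0.97), Fbln5 like Mrpl51 (0.98) and Kctd10 (0.97), Efemp1 like Zic2 (0.95) and Adam11 (0.93), and Efemp2 like Kctd2 (0.98) and Ggh (0.95). Mfap4 was most like Ccdc125 (0.91) and Shank1 (0.90), and Mfap5 like Ptgis (0.98) and Atf6 (0.95). With 10 libraries from 5 animals and 15414 genes to choose from, high values can arise in any case, and no p is given.

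No other gene of the pathway was called. Of 43 genes on the list, 40 were tested, and 0 passed over all genes in limma in either comparison (smallest adjusted p of 0.9998 between eyes and 0.546 between animals). Right-eye levels were lower for 18 of them and higher for 22, with a median log2 difference of 0.01, where 54% of all genes were lower. An unadjusted p under 0.05 was found for 2 of the 40, against 2.79% of all genes. These were Emilin2, an elastin-associated glycoprotein, at 3.70 ± 0.821 CPM in right and 4.97 ± 0.714 CPM in left eyes, and Atp7a, the copper pump that loads lysyl oxidase, at 48.8 ± 2.14 CPM in right and 45.0 ± 1.51 CPM in left eyes (SD, n = 5 each). Emilin2 was named after its values were seen.

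By role, the genes named latent TGF-beta binding proteins had 4 of 4 with a negative log2 difference, from -0.07 to -0.31, and 0 called. Of all genes, 54% were lower. Ltbp1 was at 90.5 ± 19.4 CPM in right and 111 ± 14.0 CPM in left eyes, and Ltbp3 at 72.6 ± 7.87 CPM in right and 78.9 ± 9.22 CPM in left eyes. The 5 lysyl oxidases, which crosslink elastin and collagen, had 2 lower and 3 higher and 0 called, with Loxl1 at 43.8 ± 5.92 CPM in right and 44.1 ± 5.40 CPM in left eyes and Lox at 54.0 ± 5.88 CPM in right and 49.2 ± 11.6 CPM in left eyes. The 9 genes listed as microfibril and elastin associated glycoproteins had 5 lower, 4 higher and 0 called. That name is the list's and was not tested for each gene, the multimerins Mmrn1 and Mmrn2 included. Per kb of merged exons the 9 genes were led by Mmrn2 (31.0 ± 2.99 CPM in right and 30.0 ± 1.93 CPM in left eyes) and Hmcn1 (142 ± 15.5 CPM in right and 136 ± 11.5 CPM in left eyes). Per kb of the longest transcript Emilin1 came first among them (7.90 CPM per kb), ahead of Hmcn1 (7.74) and Mmrn2 (7.67).

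The 7 ADAMTS and ADAMTS-like proteins that bind fibrillin, led by Adamts10 (71.6 ± 7.11 CPM in right and 74.3 ± 5.79 CPM in left eyes) and Adamtsl4 (32.6 ± 3.21 CPM in right and 32.1 ± 1.86 CPM in left eyes), had 2 lower, 5 higher and 0 called. Of the 5 processing and chaperone genes 2 were lower, 3 higher and 0 called, with Fkbp10, a tropoelastin chaperone, at 30.8 ± 1.41 CPM in right and 28.8 ± 3.05 CPM in left eyes. Of 8 proteases that can cut elastin 5 were tested, 2 lower, 3 higher and 0 called. They were led by the cathepsin gene Ctsl (200.5 ± 20.8 CPM in right and 210.9 ± 13.8 CPM in left eyes) and the gelatinase gene Mmp2 (102 ± 19.8 CPM in right and 99.0 ± 11.8 CPM in left eyes). The 5 integrin subunits that bind fibrillin or fibulin-5 were led by Itgb1 (161 ± 10.9 CPM in right and 159 ± 12.1 CPM in left eyes) and Itgav (252 ± 27.4 CPM in right and 241 ± 26.4 CPM in left eyes), with 1 lower, 4 higher and 0 called.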

How the data were processed

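RNA was sequenced from 10 libraries of total RNA depleted of ribosomal RNA with a stranded kit, per the labels' protocols, whose extraction text speaks of retinae. The deposited values were CPM to which 1e-04 had been added, and this was taken off. STAR, Partek and GRCm38 (mm10) are named, per the submitters' processing notes, and no version, annotation or use of strand is stated there. Per the file headers ends are given as a stop, and 1 was taken off it to match GENCODE M21 (10 of 10 members). Low values implied the worth of 1 read. In each library 89.1% to 90.1% were whole within 0.05, so reads were not recovered for every gene.

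Values were tested as log2(CPM + 0.230), which understates changes of low genes, with limma 3.58.1 in R 4.3.3 (intensity trend, 4 residual degrees of freedom, Benjamini-Hochberg adjustment over the 15414 genes averaging 1 CPM or more). Animals entered as blocks, since both eyes of each were sampled per the labels. Fellow eyes deviated together (correlation over genes of 0.272, 0.113, 0.0536, -0.189 and -0.0547 in animals 61, 64, 65, 66 and 68) in some animals and not in others. No 2 libraries were duplicates: chi-square over its degrees of freedom was 12.2 to 63.9 for the 45 pairs. Scripts were tested on simulated data. Alternatives covered the block, pseudocount, filter, scaling, array weights and each animal or library left out. All members were named. Pathway genes named were the 2 with the highest level per kb in each role and any that passed (none did). Outside this rule Emilin1, Emilin2, Mmp12, Adamtsl2 and Glb1 were named after their values were seen. Members and lists were chosen with earlier results of these data known. Figures used matplotlib 3.10.9.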

Additional observations from a re-analysis of the deposited data

How the results depend on the processing

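Between eyes, 0 genes and 0 members passed in every setting. Without the replicate block the count was also 0, with 2 members, Fbn1 and Efemp1, at an unadjusted p under 0.05. With other settings that number ran from 0 (without animal 66 or 68) to 3 (Fbn1, Fbln1 and Efemp1, without animal 64), and Fbln1 or Fbln2 was counted in some. Efemp1 was not counted without animal 65, 66 or 68 or with array weights, and its log2 difference lay between -0.58 and -0.29. Leaving out 1 eye of an animal gives the blocked estimate of leaving out both. With animals or eyes left out, 4 members changed sign: Eln ran from -0.037 to 0.097, Fbln5 from -0.039 to 0.066, Efemp2 from -0.097 to 0.062 and Mfap5 from -0.022 to 0.119. With array weights Efemp2 was at 0.0031 and Mfap5 at -0.0080. Between animals, 0 members passed in any setting. The count over all genes was 20 with array weights and 5 to 10 with animals or eyes left out, for which the cause was not tested. Each member value rested on at least 1127 implied reads, and the number of animals limits the precision.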

Other observations

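Of the 40 tested pathway genes, 4 moved one way in all 5 animals, against 4.44% of all genes, and none passed over all genes tested in limma (adjusted p = 0.9998 for each). All 4 were higher in the right eye, and all but Atp7a were named after their values were seen. Mmp12, the macrophage elastase gene, was at 2.05 ± 0.755 CPM in right and 1.54 ± 0.286 CPM in left eyes, and Adamtsl2, which encodes a protein that binds fibrillin, at 9.42 ± 1.22 CPM in right and 8.45 ± 0.845 CPM in left eyes (SD, n = 5 each). Atp7a was given above. Glb1, the lysosomal beta-galactosidase gene whose splice form binds elastin, was at 16.4 ± 1.18 CPM in right and 15.4 ± 1.01 CPM in left eyes.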
